A study of Caenorhabditis elegans with 2 samples.

Results

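The genes described here are 10 regulators of the G1 phase and of exit from the cell cycle in Caenorhabditis elegans, named as a list and drawn from 19973 nuclear protein-coding genes. The measurement is chromatin immunoprecipitation with sequencing (ChIP-seq) of RNT-1, the RUNX transcription factor of the worm. The labels describe whole hermaphrodite embryos of strain OP462, which carries the mutation unc-119(tm4063) on chromosome III and the transgene wgIs462, from which RNT-1 is made with a GFP and FLAG tag at its C terminus. The embryos are labelled late embryonic and were taken 5 h after synchronization by egg bleaching. The 2 biological replicates form 1 group with no second condition, so no contrast between conditions exists and no test was made. The antibody field names rnt-1, whereas the sample description names an antibody against GFP. Both replicates come from 1 transgenic line. Neither the cells in which the transgene is active nor the state of the endogenous rnt-1 gene is given in the labels.

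Each gene was given a span from 5000 bp upstream of its 5' end to its 3' end, and every region touching that span was taken. Regions come from the list called on both replicates together (the pooled list, 19793 regions, background included), from the list of each replicate (18427 and 21390), and from the 1931 regions that passed the authors' irreproducible discovery rate (IDR) threshold. A region's signal is the authors' score, whose scale is not stated, and rank 1 is the highest signal of a list. Signals from different lists are not on 1 scale, so replicates are compared by rank. Positions are 1-based on ce11 (WBcel235), and a summit is the position the authors gave as the highest point of a region.

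As background, a cell in G1 is driven toward S phase by cyclin D with CDK4 and then by cyclin E with CDK2. CDK inhibitors of the Cip/Kip family hold these kinases back, and ubiquitin ligases of the SCF and APC/C types remove cyclins and other regulators so that cells can stop dividing. In the worm, RNT-1 with its partner BRO-1 promotes the repeated larval divisions of seam cells in the epidermis, and cki-1 has been reported as a gene it represses there.

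IDR regions lay in the spans of 5 of the 10 genes, namely fzr-1, cdc-14, lin-23, cye-1 and cdk-2. The share of all protein-coding genes with an IDR region in the same kind of span was 15.5%. Only fzr-1, cdc-14 and lin-23 had an IDR summit at a start, from 1000 bp upstream to 200 bp downstream, where 6.76% of all protein-coding genes had one. The CDK inhibitor genes cki-1 and cki-2, the cyclin D gene cyd-1, its kinase gene cdk-4 and the cullin gene cul-1 had no IDR region. All 10 had a pooled region in the span, against 68.5% of genes, and all 10 had a pooled summit at a start, against 31.5%. Some of these start regions were weak. At cyd-1 the summit lay 944 bp upstream, with a signal of 35.8 at rank 13295, and at cdk-2 the higher region had rank 10644. The spans of the 10 were longer than usual, with a median of 8838 bp against 7027 bp. In whole embryos, binding in fewer cells and weaker binding per cell cannot be told apart.

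**Figure D1:**
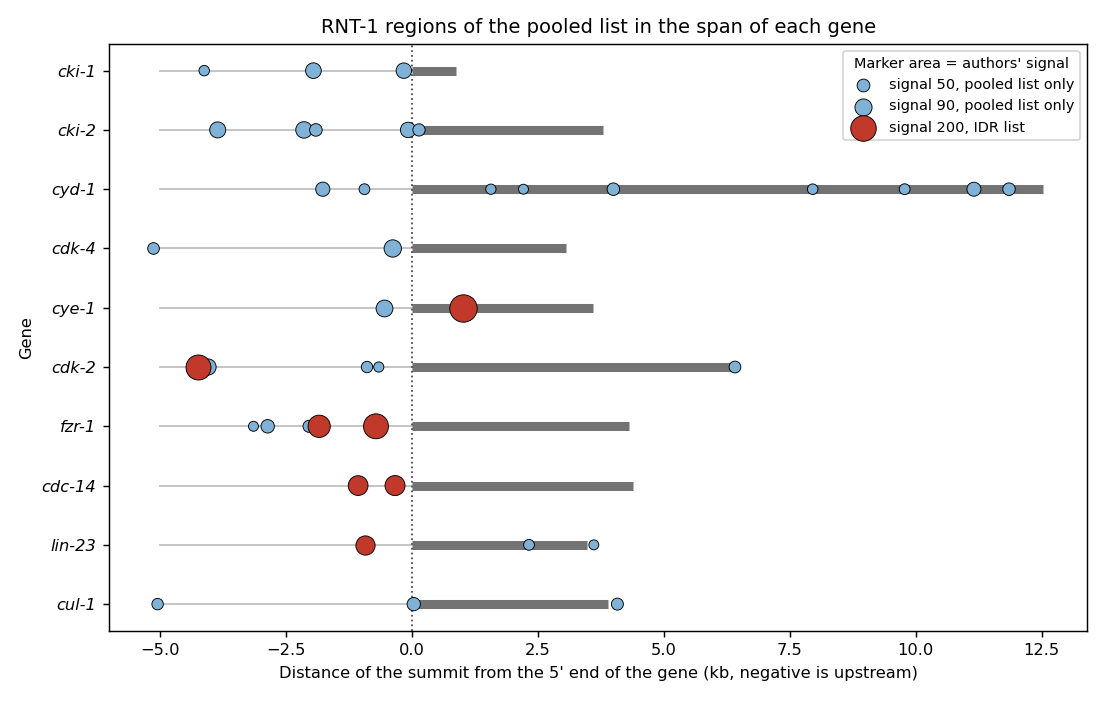
Regions of the pooled list in the span of each gene, plotted by the distance of the summit from the 5' end of the gene in kb. The thin line is the 5000 bp upstream and the thick bar the gene, marker area is the authors' signal, and red marks the 7 IDR regions, which lie upstream of the gene in 4 genes and inside it in cye-1.

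The genes cki-1 and cki-2 encode CDK inhibitors of the Cip/Kip family and lie next to each other on chromosome II, both on the forward strand. No region at either passed the IDR threshold. The gene cki-1 (WBGene00000516, 7811240 to 7812105) had 3 pooled regions, with summits 162 bp, 1957 bp and 4125 bp upstream of its only annotated start. The region 162 bp upstream had a pooled signal of 73.1 at rank 3096. It had a signal of 44.8 at rank 3367 in replicate 1 and of 33.0 at rank 2613 in replicate 2. The replicates thus placed the start region at similar ranks, well below the highest 1931 in each list.

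The distal region 1957 bp upstream of cki-1 was slightly higher in the pooled list, with a signal of 74.97 at rank 2975. Its replicates lay far apart in rank. It was at rank 6659 in replicate 1, with a signal of 33.3, and at rank 1538 in replicate 2, with 44.3. In replicate 2 alone it stood among the highest 1931 regions. The summit lies in T05A6.15, an annotated non-coding RNA gene on the forward strand, 80 bp from its start. The farthest region, 4125 bp upstream, was weak, with a pooled signal of 33.7 at rank 15093. Replicate 2 had a region there at rank 7761 and replicate 1 had none that overlapped it. Replicate 1 instead had a region 2807 bp upstream at rank 9969, and replicate 2 had regions 3183 bp upstream at rank 17453 and in the 3' UTR of cki-1 at rank 6262. None of these 3 had a pooled counterpart.

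The nearest IDR summit to cki-1 lay 9201 bp upstream of its start, outside the span, in sequence between genes. Its signal was 142 at rank 900, with rank 1015 in replicate 1 and 1098 in replicate 2, so both replicates had it among their highest 1931. The protein-coding start nearest to that summit was that of glr-4, at 7717 bp. Position alone does not assign it to either gene.

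Downstream of cki-1 the regions continued into the span of cki-2 (WBGene00000517, 7816499 to 7820281). The region with the summit 1402 bp downstream of the cki-1 start and 3857 bp upstream of the first cki-2 start had a pooled signal of 78.7 at rank 2720. It ranked 3282 in replicate 1 and 3694 in replicate 2. The highest region of both spans was 2144 bp upstream of cki-2, with a pooled signal of 83.4 at rank 2491, and it overlapped a region of lower signal, 48.6, whose summit was 1908 bp upstream. It ranked 3320 in replicate 1. The replicate 2 region there, at rank 2614, overlapped both of these pooled regions, with its summit 118 bp from each of their summits. For cki-2 there are 5 annotated transcript starts. A region with its summit 77 bp upstream of the first had a signal of 73.0 at rank 3110. An overlapping region had a signal of 46.0 at rank 7619. Its summit was 139 bp downstream of the first start, and 23 bp, 40 bp and 52 bp upstream of later ones.

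Over the 14042 bp from 5000 bp upstream of cki-1 to the end of cki-2, the pooled list had 8 regions, or 5.70 per 10 kb. The nuclear genome had 1.97 per 10 kb. Over gene spans, the median was 3.97 per 10 kb for the 10 listed genes and 1.58 for all protein-coding genes. The spans of fzr-1 and cyd-1 were nearly as dense as this stretch, at 5.37 and 5.13 per 10 kb. Among the 8 regions, the overlapping ones at cki-2 were counted separately. Replicate 1 had 8 regions there as well, and replicate 2 had 11. The stretch therefore held many regions of moderate rank, the best at rank 2491 in the pooled list, and none of IDR rank.

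**Figure D2:**
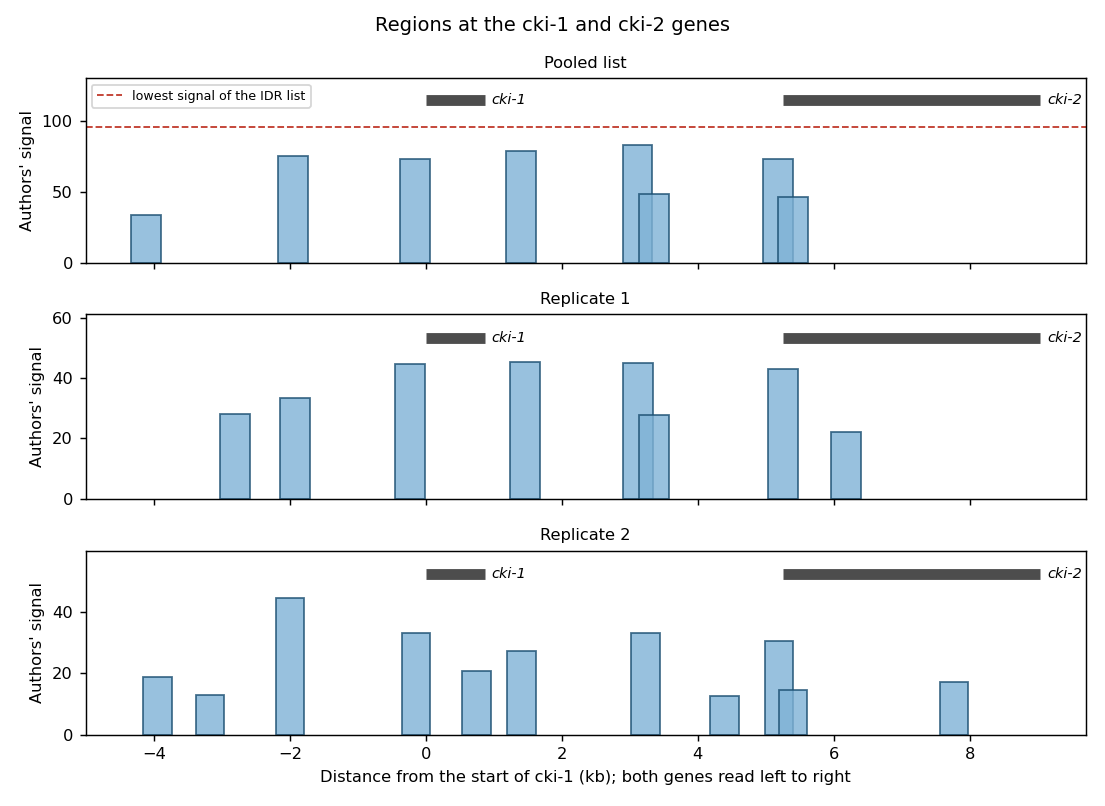
Regions at cki-1 and cki-2 in the pooled list and in each replicate, plotted by distance from the start of cki-1 in kb (bars span the deposited regions) against the authors' signal, whose scale differs between lists. Grey bars are the genes, and the dashed line in the pooled panel is the lowest IDR signal of 95.8. All 8 pooled bars stay under that line, and the bar 1957 bp upstream is the highest of replicate 2 but not of replicate 1.

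The sequences at 3 of these summits are shown because they differ in the words they hold. Each is the forward strand of ce11 from 50 bp before to 50 bp after the summit. Capitals mark the RUNX core, TGCGGT or TGTGGT on either strand, and the word ACGCAG or its reverse complement CTGCGT, which was picked with earlier results of these data known. The first is the start region of cki-1, the next its distal region, and the last the region between the 2 genes.
cki-1 start region, chrII:7811028-7811128: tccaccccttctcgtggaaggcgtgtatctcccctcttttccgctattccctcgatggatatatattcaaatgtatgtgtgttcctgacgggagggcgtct
cki-1 distal region, chrII:7809233-7809333: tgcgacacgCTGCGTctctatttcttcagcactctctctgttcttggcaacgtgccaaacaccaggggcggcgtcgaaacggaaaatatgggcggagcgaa
region between cki-1 and cki-2, chrII:7812592-7812692: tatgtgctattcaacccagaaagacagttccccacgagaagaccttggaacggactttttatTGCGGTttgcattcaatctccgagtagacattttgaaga

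The core was in neither of the cki-1 windows, and none of the 3 pooled regions of cki-1 held it anywhere in their width. The 5000 bp upstream of cki-1 had 2 cores, 1531 bp and 3376 bp from the start, both outside the pooled regions. The genome holds 2.79 matches per 5000 bp on average. The region between the genes had a TGCGGT starting 12 bp from its summit. The weaker region at the cki-2 start, whose summit is 139 bp downstream of the first start, also had one, covering the summit.

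The gene fzr-1 encodes the Cdh1-type activator of the APC/C, the ubiquitin ligase that keeps cyclins low in G1. It had the strongest region at the start of any of the 10 genes. The gene (WBGene00001510) lies on chromosome II from 9640156 to 9644466 on the reverse strand, with 1 annotated start. An IDR region from 9644963 to 9645398 had its summit 715 bp upstream, with a pooled signal of 191 at rank 432. It had a signal of 116 at rank 430 in replicate 1 and of 75.1 at rank 469 in replicate 2, a close match between the replicates. A second IDR region had its summit 1843 bp upstream of fzr-1, with a signal of 152 at rank 780, and it ranked 1073 and 587 in replicates 1 and 2. That summit is nearer to the start of sqv-8, a divergent gene of the glycosaminoglycan pathway, at 669 bp. Both regions lie between the genes.

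The gene cdc-14 encodes a dual-specificity phosphatase that in the worm helps precursor cells to stay out of the cycle. It lies on chromosome II from 5589038 to 5593427 on the reverse strand (WBGene00000383). Its IDR summit 337 bp upstream of the most upstream start had a pooled signal of 123 at rank 1202. The ranks were 1546 in replicate 1 and 910 in replicate 2. A further IDR summit 1069 bp upstream had a signal of 119 at rank 1281, with ranks 1532 and 1240, and lay only 218 bp from the start of the divergent gene ttc-4. The order of these regions differed between the replicates, since replicate 1 had the farther one marginally higher and replicate 2 the nearer one.

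The gene lin-23 encodes the F-box protein of the beta-TrCP type that gives an SCF ligase its substrates, and its loss causes extra divisions in the worm. It lies on chromosome II from 6371303 to 6374776 on the forward strand (WBGene00003009). Its IDR summit was 933 bp, 935 bp and 1226 bp upstream of the 3 annotated starts, with a pooled signal of 113 at rank 1422. The ranks of 1535 and 1388 in the replicates were close. The same summit was 493 bp upstream of linc-27, a divergent lincRNA gene, which was thus nearer than lin-23. Pooled regions at 2 further places, in a coding exon and just past the 3' end, had signals of 35.7 and 30.1 and no counterpart in replicate 1.

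The gene cul-1 encodes the cullin on which the SCF ligase is built, and in the worm its loss also causes extra divisions. It lies on chromosome III from 10471237 to 10475129 on the forward strand (WBGene00000836). Its highest region was the lowest among the 10 genes. The summit lay 35 bp downstream of the start in a coding exon, with a signal of 54.3 at rank 5340, and its ranks were 10895 in replicate 1 and 4346 in replicate 2. In replicate 1 a region past the 3' end was higher, at rank 5641, and its summit lay 70 bp downstream of the start of D2045.9. The nearest IDR summit, 9906 bp upstream of cul-1 with a signal of 589, lay 58 bp from the start of atx-2.

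The windows around the IDR summits nearest to fzr-1, cdc-14 and lin-23 are given in the same way, since these are the regions that passed the threshold at a start of their own gene. All are on the forward strand, and capitals mark the same words as above.
fzr-1, chrII:9645131-9645231: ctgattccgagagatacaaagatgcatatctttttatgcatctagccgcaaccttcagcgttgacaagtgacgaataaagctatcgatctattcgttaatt
cdc-14, chrII:5593714-5593814: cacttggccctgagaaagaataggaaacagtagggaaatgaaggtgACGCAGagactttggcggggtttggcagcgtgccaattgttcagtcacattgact
lin-23, chrII:6370320-6370420: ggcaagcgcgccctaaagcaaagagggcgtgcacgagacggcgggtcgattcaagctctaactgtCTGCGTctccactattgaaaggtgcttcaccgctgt

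None of these 3 windows holds a RUNX core. The word ACGCAG is at cdc-14 and, on the other strand, at lin-23. At fzr-1 neither is present, but GAGAGA is.

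The gene cdk-4 encodes the worm CDK4/6 kinase, the partner of cyclin D. It lies on chromosome X from 13515856 to 13518911 on the reverse strand (WBGene00000406). Its start region was the highest below the IDR threshold among the 10 genes, with its summit 382 bp upstream, a signal of 92.0 and rank 2081. The lowest IDR signal was 95.8 and the next pooled region, at rank 1932, had 95.7. The replicates differed, with rank 1319 and a signal of 72.7 in replicate 1 and rank 4045 and a signal of 25.8 in replicate 2. Replicate 1 alone therefore had it among the highest 1931. The divergent gene F18H3.1 starts 370 bp from the same summit.

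The gene cyd-1 encodes cyclin D and is the longest of the 10, from 12980591 to 12993117 on the forward strand of chromosome II (WBGene00000870). It had 9 pooled regions, the most of any of the 10, and none passed the IDR threshold. The highest, 1771 bp upstream of the first start, had a signal of 61.6 at rank 4168. It ranked 12261 in replicate 1 and 3013 in replicate 2. Replicate 1 had its highest region elsewhere, at rank 5412 in a coding exon near the 3' end of the gene, and the pooled region there had a signal of 48.1. The nearest IDR summit was 27066 bp from a start of cyd-1.

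The windows of these cyclin D and CDK4 regions are shown because both genes act at the same step and only 1 of the windows holds the core. They are on the forward strand with the same use of capitals.
cdk-4, chrX:13519243-13519343: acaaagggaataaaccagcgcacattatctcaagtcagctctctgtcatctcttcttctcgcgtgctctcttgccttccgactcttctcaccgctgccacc
cyd-1, chrII:12978770-12978870: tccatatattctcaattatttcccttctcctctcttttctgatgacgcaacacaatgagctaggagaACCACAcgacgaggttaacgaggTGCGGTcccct

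The cyd-1 window has 2 cores, a TGTGGT read on the reverse strand and a TGCGGT on the forward strand. The cdk-4 window has none, although the 5000 bp upstream of cdk-4 has 9, none of them in a pooled region. This was the highest number of upstream cores among the 10 genes, and the 5000 bp upstream of cdc-14 had the lowest, 1.

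Cyclin E and its kinase were the genes with the highest regions, both on chromosome I. In both cases the pooled summit lay in a small non-coding gene. The gene cye-1 (WBGene00000871, 6780799 to 6784397, forward strand) had an IDR region from 6781756 to 6781878 with a signal of 231 at rank 245. It ranked 211 in replicate 1 and 423 in replicate 2. The summit lies 1001 bp and 1008 bp downstream of the 2 annotated starts, in an intron of cye-1, and 4 bp into a tRNA gene on the same strand (WBGene00022955). Of all 1923 nuclear IDR summits, 90 lay inside an annotated tRNA gene, or 4.68%. The region is 123 bp wide, against a median of 436 bp in the IDR list. Nearer to the start, cye-1 had a pooled region 557 bp upstream with a signal of 86.8 at rank 2307. It ranked 2056 in replicate 1 and 2655 in replicate 2, and its summit was 91 bp from the start of the divergent gene pqn-21. In the replicates the summit of the intronic region lay 9 bp and 8 bp before the start of the tRNA gene, in the intron alone. How much of the signal in the cye-1 intron belongs to the tRNA gene was not tested.

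The gene cdk-2 (WBGene00019362, 3410013 to 3416368, forward strand) encodes the kinase partner of cyclin E. Its IDR region from 3405545 to 3405980 had a signal of 192 at rank 417, with rank 328 in replicate 1 and 826 in replicate 2. The summit lay 4250 bp and 7249 bp upstream of its 2 annotated starts. It is in an intron of W05F2.4, a gene on the other strand, and 16 bp into the non-coding RNA gene K03E5.6. The protein-coding start nearest to it was that of W05F2.4, at 1426 bp. Nearer to cdk-2, pooled regions 893 bp and 660 bp upstream had signals of 39.7 and 31.9. Close to its first start cdk-2 thus had only weak regions, at ranks 10644 and 16899 of the pooled list.

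Ranked by the highest pooled region in the span, the order was cye-1, cdk-2, fzr-1, cdc-14, lin-23, cdk-4, cki-2, cki-1, cyd-1 and cul-1, from a signal of 231 to one of 54.3. The median of these highest signals was 103, against 52.3 over the 13690 protein-coding genes with a pooled region. The share of all protein-coding genes with a higher region was 2.26% for cye-1, 4.06% for fzr-1, 12.1% for lin-23, 21.7% for cki-1 and 32.6% for cul-1. The replicates separated few of the neighbours in this order. For 8 of the 9 neighbouring pairs, the ranges between the ranks in the 2 replicates, each as a percentage of its list, overlapped. The exception was the gap between fzr-1, at 2.19% and 2.33% of the lists, and cdc-14, at 4.25% and 8.31%. In 5 of the 10 genes the highest region was the same in both replicates, namely cye-1, cdk-2, fzr-1, lin-23 and cdk-4. In cdc-14, cki-2, cki-1, cyd-1 and cul-1 the replicates had different highest regions. The share of all protein-coding genes with the same highest region in both replicates was not computed, so these counts describe the listed genes only.

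**Figure D3:**
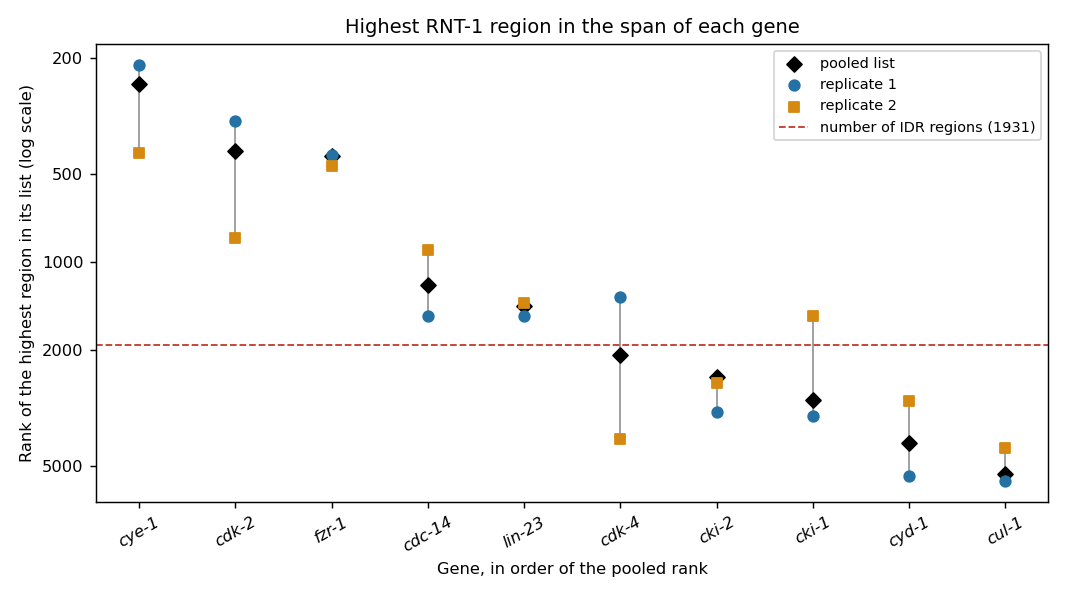
Rank of the highest region in the span of each gene in the pooled list and in each replicate, on a log scale with rank 1 at the top. The dashed line is at 1931, the number of IDR regions, and 5 genes have all 3 points above it, while cdk-4 is above it only in replicate 1 and cki-1 only in replicate 2.

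Among the highest 1931 regions of each replicate, both replicates had a region in the span of 5 genes, the same 5 that had an IDR region. The share of all protein-coding genes meeting this was 12.2%. The IDR list was itself made from these replicates, so this adds no independent support.

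**Figure D4:**
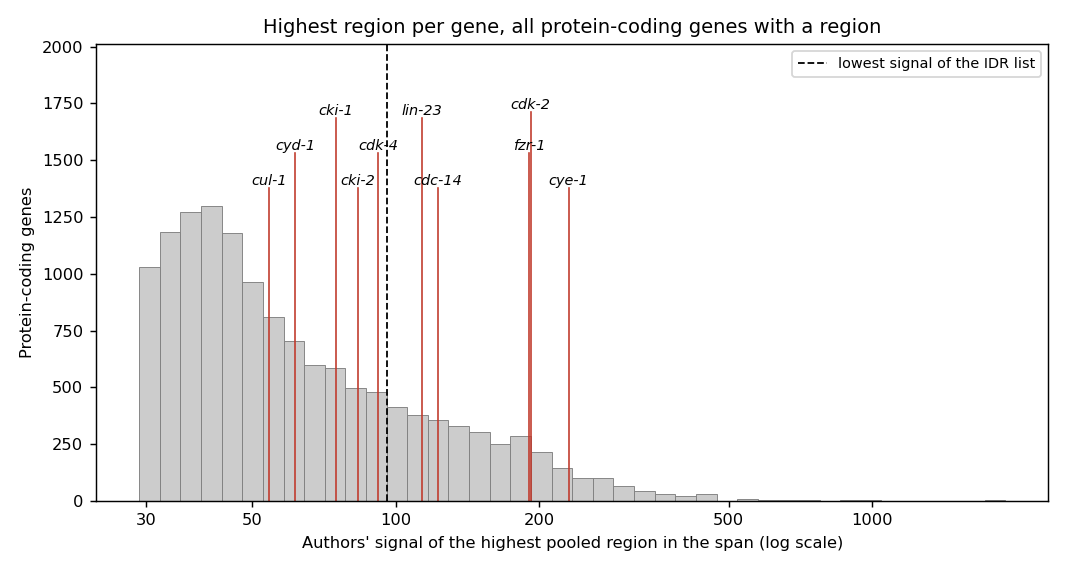
Number of protein-coding genes by the authors' signal of the highest pooled region in the span (log scale), for the 13690 genes with one. Red lines are the 10 genes and the dashed line is the lowest IDR signal of 95.8, with cul-1 at 54.3 the lowest and cye-1 at 231 the highest of the 10.

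In all, 39 pooled regions touched the spans, in 33 separate stretches, and 7 of them were IDR regions. In the whole pooled list 9.72% of nuclear regions were IDR regions. Regions of both replicates overlapped 27 of the 39, and 56.1% of all nuclear pooled regions were overlapped in this way. By location, 19 of the summits lay between genes, 18 in protein-coding genes and 2 in non-coding genes alone. The nearest protein-coding start was that of a listed gene for 25 of the 39 and for 4 of the 7 IDR regions. The other 3 IDR summits were nearer to sqv-8, ttc-4 and W05F2.4. For these counts of location and nearest start, no share over all nuclear regions was computed.

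The RUNX core was absent within 50 bp of all 7 IDR summits, and 14.8% of the nuclear IDR regions had it there. A count over 7 regions cannot be set apart from that share. Within 100 bp it was also at none of the 7, against 22.7% of nuclear IDR regions. Farther from the summit, the IDR regions 4250 bp upstream of cdk-2 and 1843 bp upstream of fzr-1 each held 1 core in their width. Among the 39 pooled regions, 4 had the core within 50 bp of the summit, against 8.66% of all nuclear pooled regions. Near the CDK inhibitor genes these were the region between cki-1 and cki-2 and the weaker region at the cki-2 start. The others were the cyd-1 region shown and the region past the 3' end of cul-1. GAGAGA or its reverse complement was within 50 bp of 5 of the 39 summits, against 14.1%. ACGCAG was at 4, against 5.82%, at cki-1, cyd-1, cdc-14 and lin-23. In 3 of these it was part of the longer word GAGACGCAG, which was looked for after the sequences were seen and was at 2.49% of all nuclear pooled regions. These 3 were the distal cki-1 region, a weak intronic cyd-1 region and the lin-23 region. The median G+C content within 50 bp of the summit was 43.6% for the 39 regions and the same for all nuclear pooled regions. A match to a word describes the sequence and does not show a site.

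Other cell cycle genes were taken from a list of 56 in 6 roles. IDR regions lay in the spans of 12 of them, or 21.4%, beside the 15.5% of all protein-coding genes, and IDR summits lay at the starts of 6, or 10.7%, beside 6.76%. The highest was at emb-1, which encodes a small APC/C subunit, with a signal of 438 at rank 23 and ranks 25 and 21 in the replicates. Its summit lay 763 bp upstream of emb-1 and was nearer to the start of K10D2.5. The E2F gene efl-1, whose product acts with the Rb protein at the G1 to S step, had its summit 140 bp upstream at a signal of 191, with ranks 437 and 527 in the replicates. The CDK-activating kinase gene cdk-7 had 180 at 28 bp upstream. The APC/C genes gfi-3 and emb-27 had 113 and 105, and the emb-27 summit was nearer to the start of rrf-3. The F-box gene sel-10, whose product acts in an SCF ligase, had 102 at 148 bp upstream.

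By role, IDR regions lay in the spans of 4 of 13 APC/C genes, 4 of 15 genes for kinases, cyclins and phosphatases of S, G2 and M phase, 2 of 10 further SCF and cullin ligase genes and 1 of 4 Rb and E2F genes. They also lay in 1 of 4 SWI/SNF genes tied to cell cycle exit, and in 0 of 10 genes of replication licensing. Of the 56 genes, 46 had a pooled region in the span and 10 had none. The median of the highest signals was 53.9 over those 46, beside 52.3 over all protein-coding genes with a pooled region and 103 over the 10 listed genes, which all had one.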

How the data were processed

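RNT-1 ChIP-seq of 2 biological replicates in 1 group was used through region lists. Per the file descriptions deposited with the samples, regions with background were called for each replicate and for both alignments together, each with a further input file, and passed to IDR. No aligner, caller or IDR cutoff is named in the sources used here. The signal is the score the authors deposited for each region, on an unstated scale. Read depth is unknown.

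The summit is the deposited start plus the deposited offset, made 1-based. All 1931 IDR regions were the highest of the pooled list. Genes came from Ensembl release 115 and sequence from RefSeq's copy of WBcel235. Overlap means at least 1 bp. A replicate region was matched to a pooled region by the nearest summit among those overlapping, so neighbouring pooled regions can share 1. The code was checked on made-up genes and regions, with Python 3.11.15, pandas 2.3.3, numpy 2.4.6 and matplotlib 3.10.9.

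The 10 genes, lists, windows and words were chosen with earlier results of these data known. Genes named were the 10, genes starting within 1000 bp of an IDR summit in their spans, and other cell cycle genes with an IDR summit at a start. Further nearest genes and genes holding a summit were named after their values were seen. Alternatives were other spans, overlap rules, start windows, thresholds, each replicate alone, and leaving out summits in non-coding genes. Of the ce10 lists, only the number of IDR regions was used.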

Additional observations from a re-analysis of the deposited data

How the results depend on the processing

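The number of genes with an IDR region in the span, 5 of 10, was 8 with spans from 10000 bp upstream, where 22.1% of all protein-coding genes had one, and cki-1, cdk-4 and cul-1 were added. The summits added for cdk-4 and cul-1 lay 117 bp from the start of pab-2 and 58 bp from the start of atx-2. The number with an IDR region in the span was 3 among the 965 IDR regions with the highest signal, against 8.66%, where cdc-14 and lin-23 were lost. It was also 3, against 13.4%, without summits in any annotated non-coding gene, where cye-1 and cdk-2 were lost, an alternative added after seeing the data. Under the other alternatives it lay between 4 and 6, with shares of all genes from 7.61% (4 genes, regions nearest to the gene's own start, also added after seeing the data) to 18.7% (6 genes, as many pooled regions as the ce10 IDR list has). Leaving out summits in tRNA genes, another alternative added after seeing the data, gave 4, against 15% of all genes. Each replicate alone gave 6, with cki-1 added without replicate 1, against 15.3% of all genes, and cdk-4 added without replicate 2, against 15.6%. The number with an IDR summit at a start, 3, was 1 with windows from 500 bp upstream to 100 bp downstream, where cdc-14 was left and 5.11% of all genes had one, and 1 among the 965 highest regions, where fzr-1 was left and 3.71% had one. It was 3 without replicate 1 and 4 without replicate 2, against 6.64% in both cases. With windows from 2000 bp upstream to 500 bp downstream it was 3, against 9.17%. Counting genes whose start was the nearest protein-coding start to an IDR summit gave 4, against 8.35%, with cye-1 added. The median rank of the highest region, 8.85% of the pooled list, was 6.84% to 8.32% with each replicate alone. No core lay near an IDR summit with either window. No paired analysis was possible because the labels give 1 group. Read depth is unknown, so it sets no stated limit, and 2 replicates limit the precision of every rank.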
